A study of Homo sapiens with 6 samples.

Results

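The nuclear genes for the subunits of the respiratory chain and of ATP synthase were examined as a group in HLF, an established human liver cancer cell line, for how open their promoters were. Members were chosen by name alone: autosomal protein-coding genes whose symbols begin with NDUFA, NDUFB, NDUFC, NDUFS, NDUFV, UQCR, COX4 to COX8 or ATP5, without the NDUFAF assembly factors, together with SDHA, SDHB, SDHC and SDHD. This gave 87 genes of 20033 protein-coding genes, 19111 of which are autosomal. Complex I supplied 36 of them, complex II 4, complex III 9, complex IV 18 and ATP synthase 20, with NDUFA4 and NDUFA4L2 counted under complex IV. The X-linked genes NDUFA1, NDUFB11 and COX7B lie outside the definition.

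The respiratory chain sits in the inner mitochondrial membrane, where complexes I and II pass electrons from NADH and succinate through ubiquinone to complex III, and cytochrome c carries them on to complex IV and oxygen. Complexes I, III and IV pump protons, and ATP synthase uses the resulting gradient to make ATP. Most subunits are encoded in the nucleus and are needed in nearly every cell, and the factors NRF1, YY1 and the ETS protein GABP are known to act at many of their promoters. A few subunits have paralogs restricted to heart, muscle, lung, testis or hypoxic cells.

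Accessibility was read out by ATAC-seq, in which the Tn5 transposase inserts sequencing adapters into DNA left free by nucleosomes, from cells given DMSO as the vehicle or 5 μM SNDX-5613, an inhibitor of the interaction between menin and the histone methyltransferase MLL1. Each group held 3 libraries, and all 6 carried the same batch label. The labels give 24 h of treatment, whereas the methods of the study describe a longer treatment for this assay. Per the methods, a replicate was 1 dish of cells divided between the treatments, so the libraries of a group come from different dishes of a single line, and the labels number the replicates without naming a dish. Hepatocyte identity was largely missing from the promoters of this line: ALB, APOA1, TTR and HNF4A had no peak in any library and SERPINA1 had one in 2, whereas the mesenchymal genes VIM, CD44, FN1 and SPARC had a peak in all 6, and the endothelial and blood markers examined had none.

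SNDX-5613 replicate 3 stood apart from the other libraries. It held 40568 accessible regions, against 88026 to 113675 in the others, and its genome-wide background pileup, a measure of depth recovered from the peak values, was 16.2% of the median of the others. The lowest pileup called at that background was 3 in this library and 6 or 7 elsewhere. Promoters were therefore compared by rank within each library, and differences whose size rests on this library are given with and without it.

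Promoter sequences that carry the motifs described below are shown here, read from the hg38 genome from 150 bases before to 20 bases after the annotated start of transcription, so that they span the proximal promoter and the first bases of exon 1, and cut short where the start of a gene on the opposite strand was reached. Capitals mark exact matches, on either strand, to the letters GCGCANGCG for NRF1, AAGATGGCG for YY1, CCGGAAGT for ETS factors, GGGGCGGGG for SP factors, or CCAATCA or CCAATCG or CCAATGA or CCAATGG for NF-Y. A match is a description of the letters and not evidence of a bound factor. UQCRFS1 at chr19:29213132-29213283 (minus strand), SDHB at chr1:17054013-17054182 (minus strand), ATP5PD at chr17:75046950-75047119 (minus strand), ATP5MK at chr10:103396456-103396625 (minus strand) and NDUFV2 at chr18:9102549-9102718 (plus strand) are the most accessible members with an NRF1, YY1, ETS, NF-Y and SP match in this window, respectively.
UQCRFS1: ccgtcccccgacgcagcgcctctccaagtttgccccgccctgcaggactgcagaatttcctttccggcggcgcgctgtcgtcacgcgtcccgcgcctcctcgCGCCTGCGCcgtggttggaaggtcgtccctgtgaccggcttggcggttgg
SDHB: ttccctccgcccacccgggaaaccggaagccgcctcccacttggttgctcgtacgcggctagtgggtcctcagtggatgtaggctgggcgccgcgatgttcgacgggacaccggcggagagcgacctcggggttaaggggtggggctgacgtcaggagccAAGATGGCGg
ATP5PD: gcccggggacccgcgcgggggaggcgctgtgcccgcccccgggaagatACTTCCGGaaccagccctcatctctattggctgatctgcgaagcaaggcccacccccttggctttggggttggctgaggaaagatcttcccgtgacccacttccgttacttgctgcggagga
ATP5MK: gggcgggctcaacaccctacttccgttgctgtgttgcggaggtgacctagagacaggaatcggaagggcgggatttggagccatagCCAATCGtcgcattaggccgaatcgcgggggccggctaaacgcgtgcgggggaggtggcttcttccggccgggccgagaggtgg
NDUFV2: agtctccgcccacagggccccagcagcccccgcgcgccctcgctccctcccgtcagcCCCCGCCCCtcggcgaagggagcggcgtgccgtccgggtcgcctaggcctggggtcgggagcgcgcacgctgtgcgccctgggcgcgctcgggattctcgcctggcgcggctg

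The second set holds promoters whose rank differed between the groups. NDUFA2 at chr5:140647611-140647780 (minus strand) and SDHD at chr11:112086756-112086892 (plus strand) each hold matches to 2 different motifs in this window, the most found in any window printed. SDHC at chr1:161314231-161314400 (plus strand) and NDUFB4 at chr3:120596186-120596355 (plus strand), the largest fall and the largest rise among members whose groups did not overlap, were added after their values were seen. SDHC holds none of the 5 motifs in this window, and NDUFB4 holds 2 NRF1 matches.
NDUFA2: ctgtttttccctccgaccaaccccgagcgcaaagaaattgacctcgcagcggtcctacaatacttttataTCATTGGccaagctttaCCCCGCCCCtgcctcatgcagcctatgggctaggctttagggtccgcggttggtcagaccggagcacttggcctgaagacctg
SDHD: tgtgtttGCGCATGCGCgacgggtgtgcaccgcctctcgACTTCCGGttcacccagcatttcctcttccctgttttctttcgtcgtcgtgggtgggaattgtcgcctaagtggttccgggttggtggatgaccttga
SDHC: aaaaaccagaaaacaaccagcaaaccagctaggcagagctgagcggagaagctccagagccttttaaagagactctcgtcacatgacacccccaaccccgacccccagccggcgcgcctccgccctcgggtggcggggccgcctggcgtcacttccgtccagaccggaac
NDUFB4: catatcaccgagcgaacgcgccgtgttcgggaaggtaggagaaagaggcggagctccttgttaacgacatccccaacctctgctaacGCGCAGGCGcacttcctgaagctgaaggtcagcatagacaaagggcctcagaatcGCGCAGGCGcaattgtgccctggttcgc

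Promoters of the group were open in nearly every case. A peak summit lay within 1 kb of the start site in all 6 libraries for 78 of the 87 members (89.7%), compared with 59.5% of all autosomal protein-coding genes. Only 4 members had a peak in none (4.6%), compared with 25.2% of all genes. Of the 78 members that are not tissue-restricted paralogs, 77 had a peak in all 6 libraries. The exception was NDUFS6, an accessory subunit of complex I, whose summit pileup was 69, 84 and 83 with DMSO and 75 and 75 in SNDX-5613 replicates 1 and 2, with no peak called in replicate 3. The consensus peak sets of DMSO and of SNDX-5613 each covered the promoters of 81 members.

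The tissue-restricted paralogs made up most of the closed promoters of the group, whereas every autosomal partner that serves most tissues was open in all 6 libraries. No library had a promoter peak at COX4I2, the lung and hypoxia isoform of COX4I1, at NDUFA4L2, a hypoxia-induced relative of NDUFA4, or at UQCRHL and ATP5MGL, the relatives of UQCRH and ATP5MG. The heart and muscle isoform COX7A1 had a peak in DMSO replicate 2 alone, with a pileup of 15 centered 996 bp past the start site, and the testis isoform COX8C had one in DMSO replicate 1 alone, with a pileup of 7. COX6A2, the heart and muscle isoform of COX6A1, had a peak in SNDX-5613 replicates 1 and 2, with pileups of 11 and 16, and in no DMSO library. Its summit lay 687.5 bp past the start site as the median. Presence in 2 of 3 libraries against 0 of 3 was not tested.

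The testis isoforms COX6B2 and COX7B2 were exceptions. COX7B2 had a summit in 5 libraries, at −50 bp from its start as the median, with pileups of 30, 32 and 28 in DMSO and 24 and 23 in SNDX-5613 replicates 1 and 2, and no peak in replicate 3. COX6B2 had a peak in all 6 libraries, with pileups of 86, 124 and 116 in DMSO and 123, 142 and 21 in SNDX-5613. That summit lay 691.5 bp past the start of COX6B2 as the median, inside the gene, and COX6B2 no longer had a peak in all 6 libraries when summits had to lie within 500 bp. The ubiquitous partner COX6B1 had pileups of 232, 329 and 282 in DMSO and 246, 254 and 38 in SNDX-5613, above those of COX6B2 in every library.

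**Figure D1:**
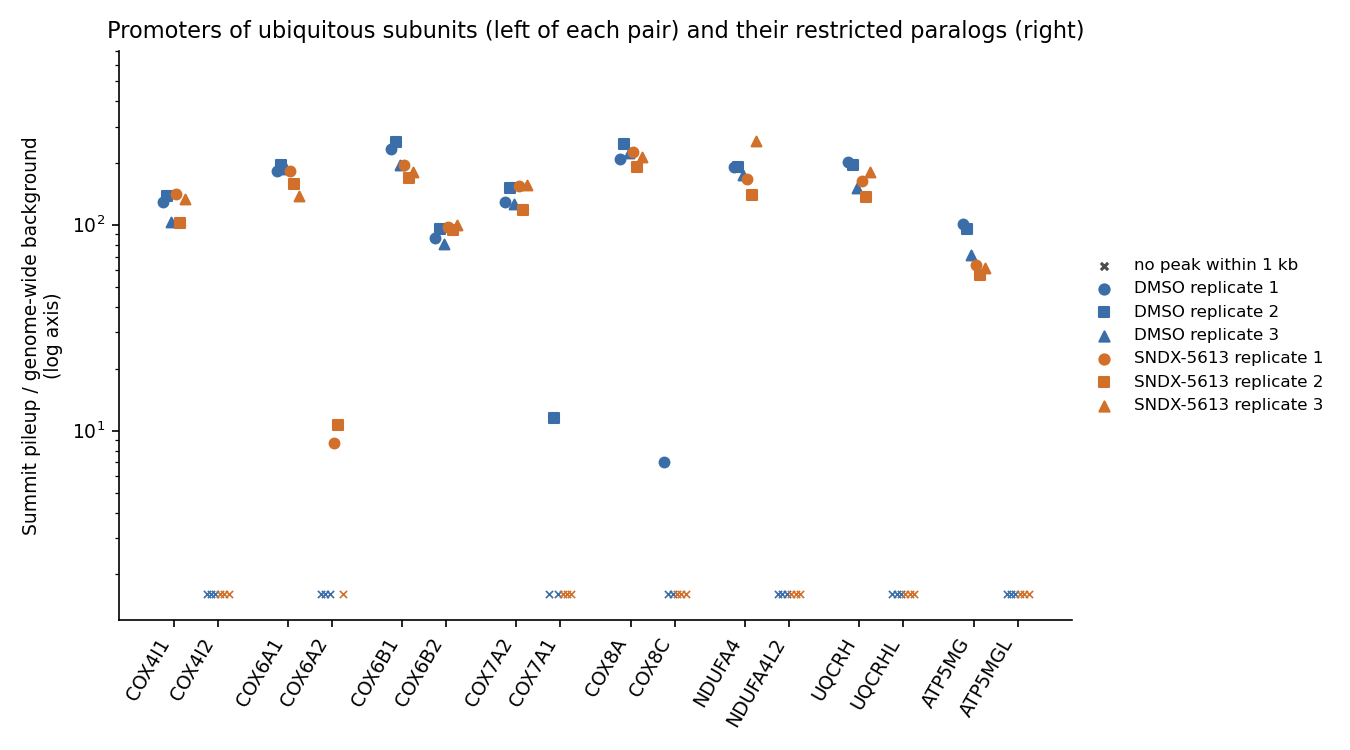
Summit pileup divided by the genome-wide background pileup of the library (log axis) for 8 ubiquitous subunits and, to the right of each, the tissue-restricted paralog. Each point is 1 of 6 libraries, with DMSO in blue and SNDX-5613 in orange, and crosses at the bottom stand for libraries with no promoter peak. All 6 libraries show a peak at every ubiquitous subunit, and COX6B2 is the 1 restricted paralog drawn that has one in all 6.

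Among the promoters that were open in all 6 libraries, those of the group tended to be strong. Each of the 11367 autosomal protein-coding genes with a peak in every library was given a rank percentile within each library, from 0 to 100, by the −log10 p of its highest promoter summit, so that the median over all these genes is 50. The median rank of the 78 members was 69.4, 62.3 and 64.9 in DMSO and 65.6, 63.7 and 66.7 in SNDX-5613. The group means were 65.5 ± 3.59 (SD, n = 3) and 65.3 ± 1.53 (SD, n = 3), and differed by −0.213, which is smaller than the spread between libraries. The median rank over the 6 libraries was above 50 for 53 of 78 members, and above 90 for 15 (19.2%) compared with 8.89% of all genes. The cytosolic ribosomal protein genes, another set needed in every cell, had a peak in all 6 libraries in 73 of 73 cases and median ranks of 67.5 ± 1.89 in DMSO and 66.5 ± 1.82 in SNDX-5613 (SD, n = 3).

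**Figure D2:**
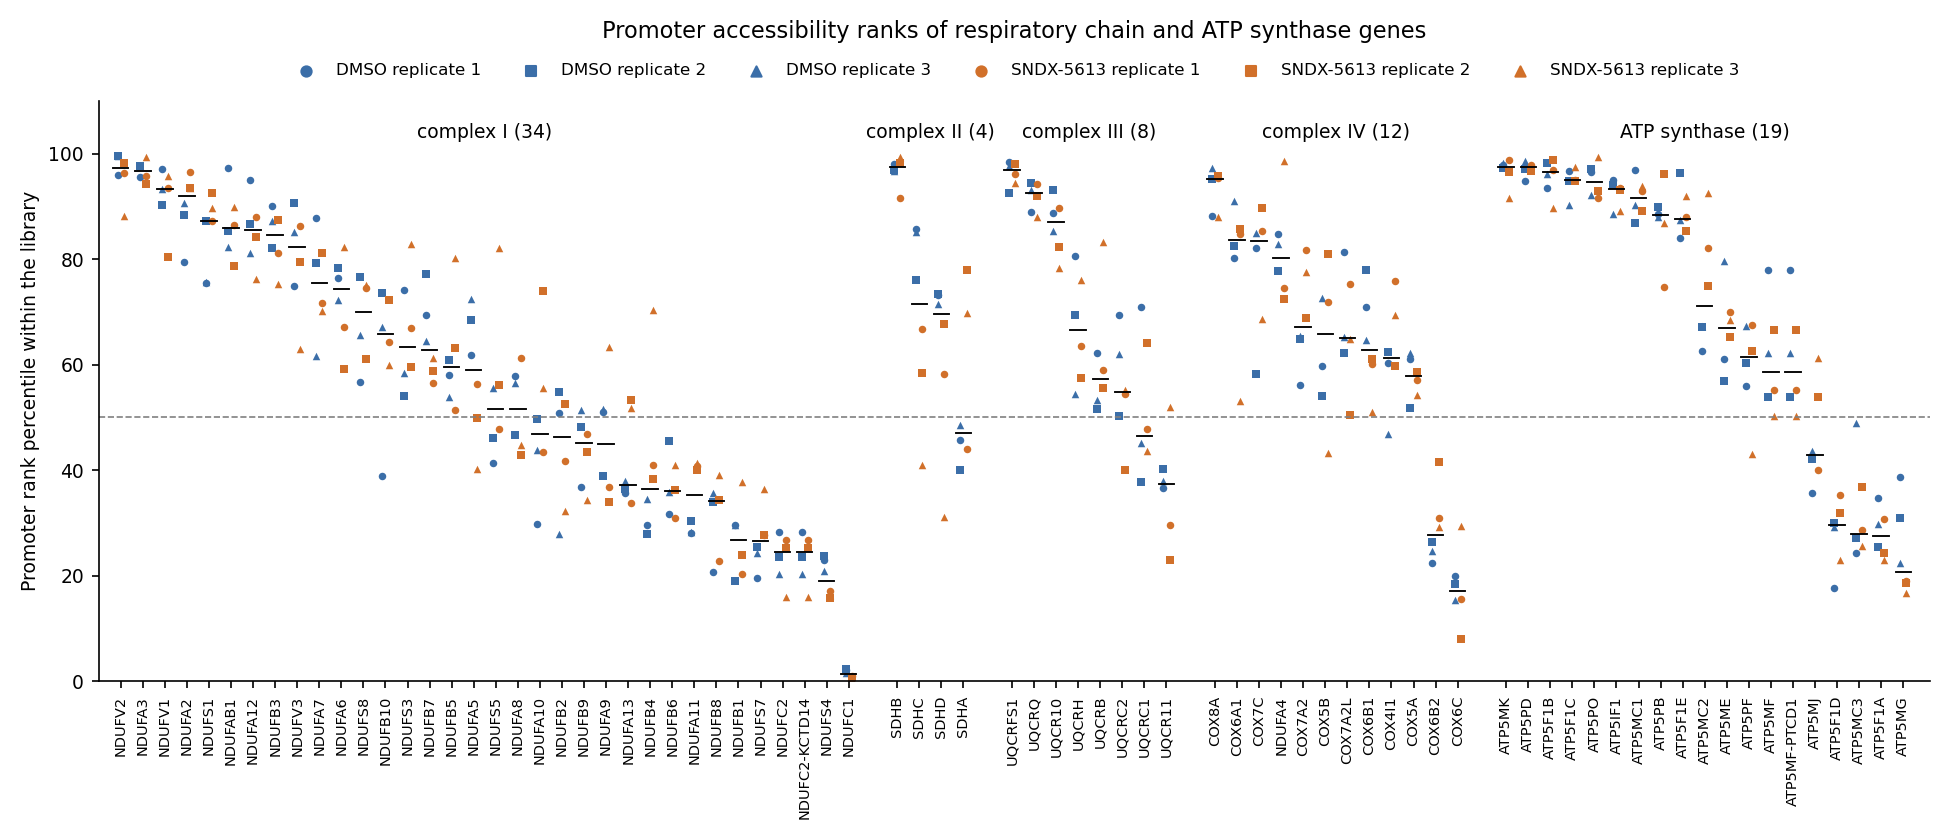
Promoter rank percentile within the library for 77 of the 78 members with a peak in all 6 libraries, by complex and ordered by their median (black bar). Each point is 1 library, with DMSO in blue and SNDX-5613 in orange, and the dashed line marks 50, the median of all ranked genes. Every complex spans a wide range, from NDUFC1 at the bottom to ATP5MK and ATP5PD at the top.

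The most accessible promoters came from several complexes. Median ranks over the 6 libraries were 97.5 for ATP5MK, a small membrane subunit of ATP synthase, and 97.5 for ATP5PD, a subunit of its peripheral stalk. SDHB, the iron-sulfur subunit of complex II, had a median rank of 97.4, NDUFV2, a core iron-sulfur subunit of complex I, 97.3, and UQCRFS1, the Rieske iron-sulfur protein of complex III, 96.9. At NDUFV2 the pileup was 239, 394 and 374 in DMSO and 294, 306 and 44 in SNDX-5613. The lowest rank of these 5 promoters in any library was 88.2, at NDUFV2 in SNDX-5613 replicate 3.

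The weakest ranked promoters included accessory subunits. NDUFC1, an accessory subunit of complex I, had a median rank of 1.37 and was the only member below 10. Its pileup of 51, 65 and 60 in DMSO and 53, 56 and 10 in SNDX-5613 stood on a local background of 12.9, 16.5 and 18.8 in DMSO and 14, 17.4 and 2.6 in SNDX-5613, and the summit lay 255 bp past the annotated start. COX6C, a small subunit of complex IV, had a median rank of 17.1 on a low local background of 0.359 to 2.61. NDUFS4, an accessory subunit of complex I whose loss causes Leigh syndrome, ranked 19.1, and ATP5MG, subunit g of ATP synthase, ranked 20.7. NDUFC2 ranked 24.5 and shares its summit with the read-through gene NDUFC2-KCTD14, as ATP5MF does with ATP5MF-PTCD1, so each pair is 1 measurement.

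The complexes differed in rank by description. The 7 core subunits of complex I, which carry its flavin and iron-sulfur clusters or border the quinone site, had median ranks of 79.1 ± 6.06 in DMSO and 85.3 ± 4.20 in SNDX-5613 (SD, n = 3), compared with 56.0 ± 1.02 and 59.3 ± 3.36 for all 35 ranked subunits of complex I. ATP synthase had median ranks of 74.9 ± 6.74 and 78.8 ± 6.95, complex III 64.8 ± 9.54 and 66.4 ± 9.32, and complex IV 64.5 ± 1.95 and 66.5 ± 7.78 (SD, n = 3). Only complex II had lower median ranks in every SNDX-5613 library, at 62.5, 72.8 and 55.5, than in any DMSO library, at 79.4, 74.7 and 78.3. It rests on 4 genes, 2 of which, SDHC and SDHD, were lower in every SNDX-5613 library, read against 6.65% of all ranked genes. In each DMSO library the median of complex II is the midpoint of SDHC and SDHD. The lower medians therefore largely restate those calls and are no separate support for them.

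**Figure D3:**
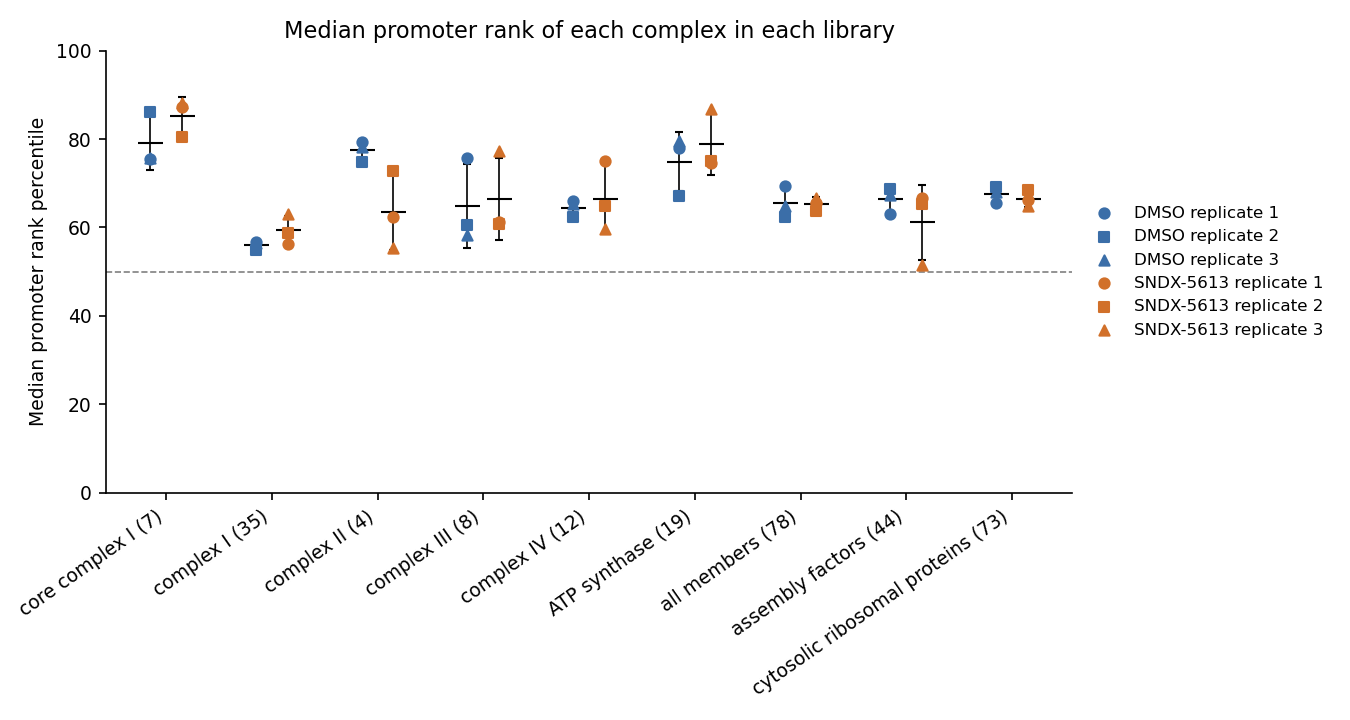
Median promoter rank percentile of each complex in each library, with the mean and SD over 3 libraries in black and the number of ranked genes in parentheses. DMSO is blue, SNDX-5613 is orange, and the dashed line marks 50, the median of all ranked genes. Core subunits of complex I have the highest mean in both groups, and complex II is the 1 complex drawn whose groups do not overlap.

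To ask which promoters shifted with menin inhibition, a member was called where its 3 SNDX-5613 ranks all lay above or all below its 3 DMSO ranks. For a single gene this gives 0.1 in an exact two-sided permutation test that treats the libraries as unpaired. That is the smallest p that 3 libraries against 3 allow, so the usual threshold for significance could not be reached by any gene. Pairs allow fewer arrangements and so no smaller p. Ranks were higher with SNDX-5613 for 9 members, read against 7.21% of all ranked genes, and lower for 8, read against 6.65%. In all, 17 of 78 members (21.8%) did not overlap, compared with 13.9% of all ranked genes and 6.85% of the ribosomal protein genes. Taking same-numbered libraries as pairs, 13 members were higher and 12 lower with SNDX-5613 in every pair, read against 14.7% and 15.2% of all ranked genes. Without SNDX-5613 replicate 3 the counts were 11 higher and 13 lower, read against 12.1% and 12.3% of all ranked genes.

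Complex II held the largest fall. SDHC, a membrane anchor of succinate dehydrogenase, had ranks of 85.6, 76.1 and 85.1 in DMSO and 66.8, 58.4 and 41.0 in SNDX-5613. All SNDX-5613 libraries were below all DMSO libraries, by 26.9 on average and by 18.2 without SNDX-5613 replicate 3. The pileup at SDHC over the genome-wide background was 159, 153 and 143 in DMSO and 125, 96.7 and 94.8 in SNDX-5613. The median of this ratio over all ranked genes was 138.4, 141.8 and 123.0 in DMSO and 124.6, 107.9 and 123.2 in SNDX-5613, so its fall is not wholly particular to SDHC. SDHD, the other membrane anchor, had ranks of 73.1, 73.4 and 71.5 in DMSO and 58.1, 67.8 and 31.2 in SNDX-5613. Its groups did not overlap, but the size of the difference rested on SNDX-5613 replicate 3, where the pileup was 18 (exact Poisson 95% interval 10.7 to 28.4, counting error only): the mean difference was −20.3 with this library and −8.97 without it.

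The catalytic subunits of complex II did not follow the anchors. SDHA, the flavoprotein that oxidizes succinate, had ranks of 45.7, 40 and 48.6 in DMSO and 44.03, 77.9 and 69.9 in SNDX-5613, so that its mean was 19.2 higher but the groups overlapped. The difference at SDHA was 14.9 without SNDX-5613 replicate 3. SDHB had ranks of 97.9, 96.9 and 96.7 in DMSO and 91.6, 98.1 and 99.3 in SNDX-5613, which overlapped. The SDHD summit lies between the divergent starts of SDHD and TIMM8B, and the SDHA summit between those of SDHA and CCDC127, so peaks there cannot be assigned to 1 gene.

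In complex I, 6 of 35 ranked members were higher and 4 lower, or 28.6% without overlap against 13.9% of all ranked genes. Among the core subunits, NDUFS1, the largest, had ranks of 75.4, 87.2 and 75.7 in DMSO and 87.2, 92.5 and 89.7 in SNDX-5613, and NDUFS7, another iron-sulfur subunit, had 19.6, 25.4 and 24.3 in DMSO and 27.8, 27.7 and 36.5 in SNDX-5613. The mean differences were 10.4 for NDUFS1 and 7.56 for NDUFS7, the latter falling to 4.35 without SNDX-5613 replicate 3. The closest libraries at NDUFS1, DMSO replicate 2 at 87.16 and SNDX-5613 replicate 1 at 87.23, were nearly equal. No core subunit of complex I was lower in every SNDX-5613 library.

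Accessory subunits of complex I moved in both directions. NDUFB4 had ranks of 29.6, 28.0 and 34.6 in DMSO and 41.0, 38.3 and 70.4 in SNDX-5613, a mean rise of 19.2 that was 8.23 without SNDX-5613 replicate 3. NDUFA11 had ranks of 28.1, 30.4 and 28.4 in DMSO and 40.8, 40.1 and 41.3 in SNDX-5613, with SDs of 1.24 and 0.59 (n = 3), and did not overlap. NDUFA2 had ranks of 79.4, 88.4 and 90.7 in DMSO and 96.5, 93.4 and 93.5 in SNDX-5613, a mean rise of 8.31 that was 4.93 without DMSO replicate 1. Relative to the start site, the summit assigned to NDUFA11 lay at −790.5 bp and that of NDUFS7 at −490.5 bp, and neither gene was called when summits had to lie within 500 bp. The strongest NDUFA11 summit lay 245 bp from the start of another protein-coding gene, so the difference there cannot be assigned to NDUFA11.

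The falls among the accessory subunits were largest at NDUFA5, with ranks of 61.8, 68.4 and 72.4 in DMSO and 56.3, 49.9 and 40.2 in SNDX-5613. NDUFB7 had ranks of 69.4, 77.2 and 64.5 in DMSO and 56.6, 58.7 and 61.2 in SNDX-5613. NDUFS4 had ranks of 23.05, 23.8 and 20.9 in DMSO and 17.2, 15.8 and 16.3 in SNDX-5613. Mean ranks fell by 18.7 at NDUFA5, 11.5 at NDUFB7 and 6.18 at NDUFS4. Without SNDX-5613 replicate 3 the difference at NDUFA5 was −13.3. NDUFC1, at the bottom of the ranking, was lower by 1.26, a difference that changed sign in other settings.

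In complex IV, 2 of 12 ranked members were higher and 1 lower (25%), and in ATP synthase 1 of 19 was higher and 1 lower (10.5%), against the same 13.9%. COX7A2, the isoform of COX7A1 found in liver and most tissues, had ranks of 56.1, 64.9 and 65.4 in DMSO and 81.8, 68.8 and 77.6 in SNDX-5613, higher by 13.9. COX6B1 had ranks of 70.9, 77.9 and 64.6 in DMSO and 60.1, 61.1 and 51.1 in SNDX-5613, and fell by 13.7. Without SNDX-5613 replicate 3 the difference at COX6B1 was −9.69. Its testis paralog COX6B2 moved the other way, with ranks of 22.5, 26.3 and 24.8 in DMSO and 30.9, 41.5 and 29.3 in SNDX-5613. The rise at COX6B2 was 9.41, 5.61 without SNDX-5613 replicate 2, and −3.11 when the fold enrichment was ranked in place of p.

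ATP5MC2, a gene for subunit c of the rotating ring, had ranks of 62.5, 67.2 and 67.4 in DMSO and 82.1, 74.97 and 92.6 in SNDX-5613, higher by 17.5. This difference was 11.8 without SNDX-5613 replicate 3. ATP5MG had ranks of 38.6, 31.0 and 22.4 in DMSO and 19.0, 18.6 and 16.7 in SNDX-5613, lower by 12.6. No member of complex III was called in either direction, and ranks of UQCRH were 80.6, 69.5 and 54.5 in DMSO and 63.6, 57.5 and 76.1 in SNDX-5613. The other ubiquitous partners of restricted paralogs also had groups that overlapped: COX4I1, COX6A1, COX8A and NDUFA4 had mean differences of 11.8, −10.0, −0.548 and 0.117. Without SNDX-5613 replicate 3 these were 10.4, 0.645, 1.83 and −7.57. NDUFA4 ranked 84.7, 77.7 and 82.9 in DMSO and 74.6, 72.5 and 98.5 in SNDX-5613, so that its groups did not overlap once that library was left out.

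**Figure D4:**
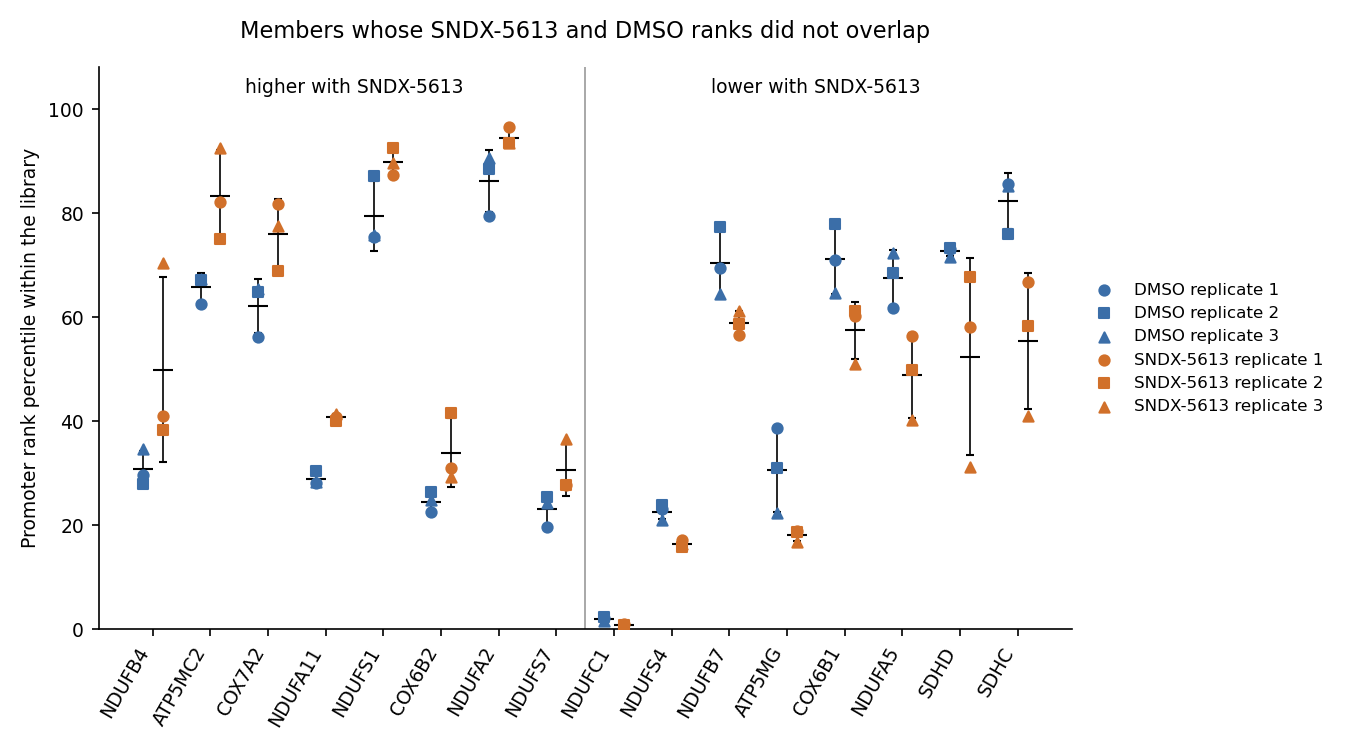
Promoter rank percentile in each library for 16 of the 17 members whose SNDX-5613 (orange) and DMSO (blue) ranks did not overlap, ordered by the difference of the group means, with the mean and SD over 3 libraries in black. The 8 members at the left are higher with SNDX-5613 and the 8 at the right lower. SNDX-5613 replicate 3 (orange triangle) is the farthest of its group from the DMSO mean at NDUFB4, ATP5MC2, NDUFA11 and NDUFS7 among the former and at SDHC, SDHD, NDUFA5, COX6B1, ATP5MG and NDUFC1 among the latter.

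The measure that was ranked mattered for some members. NDUFS1, NDUFB4, NDUFA2 and NDUFA11 were higher, and SDHC, NDUFS4 and ATP5MG lower, whether p, fold enrichment or the recovered pileup was ranked. The size depended on the measure at NDUFS4, with a mean rank difference of −6.18 by p and −32.4 by fold enrichment, and at ATP5MG, with −12.6 and −28.9. Fold enrichment at NDUFS4 was 20.5, 23.2 and 19.3 in DMSO and 18.3, 16.0 and 7.95 in SNDX-5613. At ATP5MG it was 19.0, 19.0 and 14.7 in DMSO and 15.2, 12.9 and 7.70 in SNDX-5613. The part of the shallow SNDX-5613 replicate 3 in these 2 fold differences was not tested. SDHD and NDUFA5 overlapped by pileup, where their mean differences were −12.7 and −10.8. COX7A2, ATP5MC2 and NDUFS7 overlapped by fold enrichment, with differences of 6.56, 14.9 and 5.20, as did NDUFB7 and COX6B1, with −8.71 and −0.205.

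Other genes of the pathway were taken from lists of assembly factors and regulators. Of 45 assembly factors, 44 had a promoter peak in all 6 libraries, 2 were higher with SNDX-5613 (LYRM7 and FOXRED1) and 4 lower (COX10, COA6, NUBPL and ACAD9), or 13.6% against 13.9% of all ranked genes. Their median rank was 63.0, 68.8 and 67.3 in DMSO and 66.8, 65.2 and 51.4 in SNDX-5613, so that the lowest value was that of SNDX-5613 replicate 3 and the groups overlapped. Of 14 autosomal regulators of respiratory genes, 12 had a peak in all 6 libraries. Among the rest, PPARGC1A, a coactivator of mitochondrial gene expression, had a peak in 2 libraries, and ESRRG, an orphan nuclear receptor, in 5. The 1 regulator called was MYC, which was higher, or 8.33% of the 12 against 13.9% of all ranked genes.

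Position and sequence gave features that the choice of members did not use. The median summit of the 78 members lay at −76 bp from the start site, compared with −72.5 bp for all ranked genes, and 66 (84.6%) had it 1 to 200 bp upstream, compared with 73.7% of all ranked genes. Another gene started on the opposite strand within 1 kb upstream for 33 of the 78 (42.3%), compared with 28.9% of all ranked genes. This arrangement was most frequent in complex III, at 75%, and in the core of complex I, at 71.4%, and least frequent in complex IV, at 16.7%. Divergent partners included PDCD11 for ATP5MK, KCTD2 for ATP5PD, IK for NDUFA2 and LRRC41 for UQCRH. Peaks between such divergent starts cannot be assigned to 1 gene, as at SDHD and SDHA. The same holds for ATP5MG, whose summit lies 11 bp from another protein-coding start. ATP5PF, singled out after its neighbor was seen, starts opposite GABPA, which encodes the DNA-binding subunit of GABP.

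Motif content of the summits was compared with all ranked promoters as a description, without a test. Within 100 bp of the summit, the NRF1 motif was present in 22 of 78 members (28.2%, Wilson 95% interval 19.4 to 39.0), compared with 14.1% of all ranked promoters. The YY1 motif was present in 6 (7.69%, 3.57 to 15.8), compared with 3.09%, and the ETS motif in 12 (15.4%, 9.03 to 25), compared with 9.07%. The NF-Y motif was present in 15 (19.2%, 12 to 29.3), compared with 24.7%, and the SP motif in 9 (11.5%, 6.19 to 20.5), compared with 26.2%. The intervals of the members for ETS and NF-Y held the share of all promoters. These intervals treat the members as independent draws, although 4 members share 2 summits and all are among the ranked promoters. They are a description and no test of a difference for any motif. Within 250 bp each share lay on the same side of that of all promoters.

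Base composition was described alongside these motif shares. Median GC content around the summit was 61.0% in members and 65.9% over all ranked promoters, and the observed over expected CpG ratio was 0.797 and 0.842. The median GC content was 63.4% in assembly factors and 59.1% in ribosomal protein genes. The SP motif consists of G and C alone, and the part of GC content in these shares was not tested. Of the 5 motifs, 29 members had none at the summit, 35 had 1 kind, 13 had 2 and 1 had 3. NF-Y motifs occurred at the summits of NDUFA2, which was higher with SNDX-5613, and of COX6B1 and NDUFC1, which were lower. NRF1 motifs occurred at NDUFB4 and ATP5MC2, which were higher, and at SDHD and NDUFA5, which were lower.

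**Figure D5:**
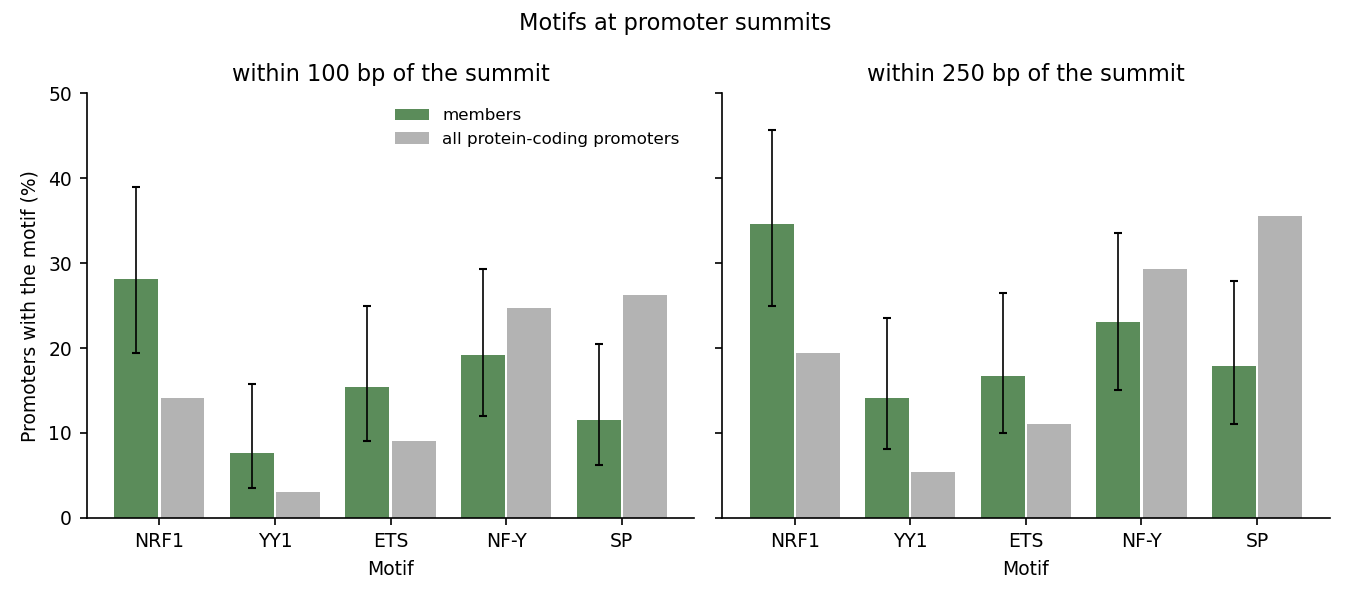
Share of promoters with each motif within 100 bp (left) and 250 bp (right) of the summit, for the 78 members (green, with the Wilson 95% interval) and for all 11367 ranked protein-coding promoters (gray). Shares of members lie above those of all promoters for NRF1, YY1 and ETS and below for NF-Y and SP in both windows, and the intervals for ETS and NF-Y hold the share of all promoters in both. The intervals are a description and no test.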

How the data were processed

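ATAC-seq peaks of 6 libraries (DMSO and SNDX-5613, 3 each) were analyzed from the deposited peak lists, called by the authors in each library separately, and from 2 consensus sets, made by combining replicates with RMSPC. The submitters' processing notes name Trim Galore 0.6.7, Bowtie2 2.3.4.1, Picard 2.20.0, SAMtools, deepTools 3.5.4, MACS2 and the hg38 build. Duplicates were marked with Picard per the methods. Whether they were removed before peak calling, and how the Tn5 offset, mapping quality and blacklisted regions were handled, is not given in the sources used here. A small offset hardly bears on presence within 1 kb, whereas unfiltered reads can add peaks in repeats. The study tested read counts with DESeq2, which was not done here.

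Per summit, the deposited lists give the fold enrichment over local background as a ratio, −log10 p, −log10 q and the summit offset, all computed by the authors with MACS2 output layout. Of the consensus sets, which hold a combined −log10 p from the authors, only regions were used. The score column deposited in each list was left aside. Read numbers are not given in these files, so the whole-number pileup at each summit was solved from fold and p within 0.001 of −log10 p, and pileups were whole for 100% of solved summits in each library, with 1 exception in DMSO replicate 1, against 0.64% to 0.84% with p shuffled. The most frequent background served as relative depth.

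Start sites were those of the representative transcript in GENCODE release 44 (MANE Select for 85 members, Ensembl canonical for 2). A gene had a promoter peak with a summit within 1 kb, and its highest −log10 p was used. Groups and replicate numbers came from the labels. Same-numbered libraries were taken to share a dish because the methods say that each dish was split between treatments, although their ranks deviated from the group means with correlations of only 0.0338, −0.0158 and 0.0075. Ranks were compared by exact two-sided permutation without this pairing, with 10 distinct splits. The recovery of pileups and the rank call were tested on simulated data. Alternatives were any coding transcript's start, 500 bp, −log10 q of at least 3, the 40568 top regions of each list, ranking by fold, by pileup or among all genes with a peak in the library, leaving out each library, a replicate block and a motif window of 250 bp. Analysis used Python 3.11.15, pandas 2.3.3, numpy 2.4.6, scipy 1.17.1, pyfaidx 0.9.0.4 and matplotlib 3.10.9.

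Named were all restricted paralogs and partners, the 4 SDH genes, members without a peak in all 6 libraries, the 5 highest and 5 lowest by median rank, and up to 8 non-overlapping members per direction by size. For printed sequence, members off chromosome 8 with the most motif kinds and the highest-ranked holder of each motif were eligible. 1 member and 1 marker are not reported here by name. The members, lists and tests were chosen with earlier results of these data known.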

Additional observations from a re-analysis of the deposited data

How the results depend on the processing

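For the 17 called members, 219 differences under other settings were computed, of which 203 kept direction and call, 13 kept the direction only and 3 reversed. The settings that left out 1 library all count among the 203. Those could lose a call only through the re-ranking of genes, so they say little about the calls. The rank difference reversed at NDUFC1 with the start of any protein-coding transcript (0.777) and with equal numbers of top regions (0.0185), and at COX6B2 when fold enrichment was ranked (−3.11). With equal numbers of top regions, 7 members had a peak in no library instead of 4. Ranking by the recovered pileup left 5 members lower instead of 8, read against 7.31% of all ranked genes instead of 6.65%. Leaving out each library in turn gave 9 to 16 members higher, with 16 without SNDX-5613 replicate 1, and 9 to 13 lower, with 13 without SNDX-5613 replicate 3, against 11.2% to 13.2% and 10.8% to 13% of all ranked genes. The same left 78 to 80 members with a peak in all remaining libraries, 4 to 5 in none, and a median rank difference of −1.83 to 1.71. With a replicate block, 13 members were higher and 12 lower in all 3 numbered pairs (14.7% and 15.2% of all ranked genes). A block keeps all 17 called members and the median difference of −0.213 by construction, so neither is a check of the calls. The shallow SNDX-5613 replicate 3 limits presence calls there to strong sites.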
